A study of Mus musculus with 15 samples.

Results

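The 35 genes described here are type I interferon stimulated genes of the mouse, chosen as a list by name and found by symbol in the gene annotation GENCODE M21. They are 35 of the 55335 genes in the colon RNA-seq values, and 33 of them were among the 14385 genes tested, those with at least 1 FPKM in at least 5 mice. FPKM is the fragment count of a gene scaled by transcript length and by library size, so that levels of genes of different length can be compared. Mx2 and Ifi44 were measured but were too low for the test. RNA was taken from colon tissue of 15 mice in 3 groups of 5. Every mouse received DSS (dextran sulfate sodium, a chemical that injures the colon lining): one group received DSS alone (DSS), one received DSS with ICB, immune checkpoint blockade (DSS_ICB), and one received DSS with ICB and a gavage of the gut bacterium Faecalibacterium prausnitzii (DSS_ICB_Fp). The labels name no group without DSS and do not give the checkpoint antibodies, a control antibody or control gavage, the dose, strain, age or cages. Mice are numbered 1 to 5 within a group in the order of their records. The series sets the groups side by side in a study of immunotherapy toxicity, so 3 comparisons follow. DSS_ICB was compared with DSS, then DSS_ICB_Fp with DSS_ICB, and last DSS_ICB_Fp with DSS. The comparisons share groups and are not independent of each other.

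Type I interferons are secreted by cells that sense nucleic acids of viruses, of bacteria or of damaged cells. They bind the receptor Ifnar1 and Ifnar2, whose kinases activate Stat2. Stat2 and Irf9 belong to a complex that binds the interferon-stimulated response element in promoters, and the genes it switches on block viral entry, translation and genome copying or raise the cell's own sensors. Interferon gamma and type III interferon induce many of the same genes, so their mRNA alone does not name the ligand. In the gut, epithelial cells, macrophages and other leukocytes can all carry such responses.

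The response element is short, and the members differ in whether its letters lie near their start site. RefSeq's promoter table (build GRCm38.p6, 250 bases before to 50 after each start) held 28 promoters of 25 of the 35 members. The core of the response element, searched as GAAA, any 2 bases and GAAA on both strands, was present in 15 of those 25 members (60%). Of all 27025 gene symbols in the table, 3.99% held it in at least 1 promoter. Counted by promoter, it was in 16 of the 28 member promoters and in 3.44% of all 32851. The core of the gamma-activated site, TTCNNNGAA on both strands, was present in 4 of the 25 members, Bst2, Ifit2, Ifitm3 and Oas1a. It was in 9.55% of all gene symbols and in 8.30% of all promoters. In Bst2 and Ifitm3 a match to it shares letters with a response element match. A match is a description of letters and not a measured binding site. The promoters below are printed whole for the members whose levels differ most in pattern, in lower case with the response element matches in capitals, 5′ to 3′ on the gene's strand. Isg15 (chr4:156200769-156201068, minus strand) has 3 overlapping matches, Ifitm3 (chr7:141010695-141010994, minus strand) has 2 separate ones, and in the Ifitm1 window (chr7:140967826-140968125, plus strand) these letters do not occur. That Ifitm1 window lies wholly inside the gene as annotated in GENCODE, which starts at chr7:140967221. The bases before that start were not searched, so a match there is not excluded.

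Isg15 promoter: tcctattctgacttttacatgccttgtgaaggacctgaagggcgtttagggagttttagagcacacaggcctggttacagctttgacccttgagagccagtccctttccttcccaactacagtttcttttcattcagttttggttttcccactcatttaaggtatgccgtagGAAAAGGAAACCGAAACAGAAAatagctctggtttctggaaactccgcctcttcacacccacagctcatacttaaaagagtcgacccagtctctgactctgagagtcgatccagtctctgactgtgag
Ifitm3 promoter: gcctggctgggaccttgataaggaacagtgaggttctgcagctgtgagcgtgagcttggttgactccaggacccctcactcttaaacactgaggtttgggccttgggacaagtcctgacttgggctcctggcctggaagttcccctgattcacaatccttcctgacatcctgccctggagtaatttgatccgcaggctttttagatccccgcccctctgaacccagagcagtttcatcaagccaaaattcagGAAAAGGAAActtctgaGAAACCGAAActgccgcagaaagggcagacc
Ifitm1 promoter: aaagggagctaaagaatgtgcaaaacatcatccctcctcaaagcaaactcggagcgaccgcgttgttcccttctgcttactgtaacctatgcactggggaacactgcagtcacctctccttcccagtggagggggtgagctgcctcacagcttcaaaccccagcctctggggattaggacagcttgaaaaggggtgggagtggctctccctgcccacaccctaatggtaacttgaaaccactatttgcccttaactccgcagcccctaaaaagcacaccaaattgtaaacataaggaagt

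For a further 5 members, the matches are shown with 15 bases on each side, because these genes recur in the comparisons. In Ifit1 the matches read TTTC, 2 bases and TTTC, since they lie on the opposite strand. The stretches are Ifit1 at chr19:34640770-34640828, plus strand, Bst2 at chr8:71537572-71537617, minus strand, Ifitm2 at chr7:140955983-140956022, minus strand, Oas1a at chr5:120907515-120907560, minus strand, and Oas1g at chr5:120887601-120887646, minus strand. Those of Oas1a and Oas1g, neighbouring copies of one gene, are identical.

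Ifit1 matches: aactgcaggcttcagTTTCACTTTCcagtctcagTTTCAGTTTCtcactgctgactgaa
Bst2 matches: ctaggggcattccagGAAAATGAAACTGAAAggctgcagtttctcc
Ifitm2 matches: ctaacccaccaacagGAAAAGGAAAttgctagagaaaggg
Oas1a matches: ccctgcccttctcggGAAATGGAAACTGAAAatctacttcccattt
Oas1g matches: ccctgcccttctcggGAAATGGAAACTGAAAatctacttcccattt

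The files hold no counts. A rough depth per library, read from the steps between low values, was between 15470000 and 25050000 fragments, but only 34.0% to 40.1% of the low values fell on such steps, so the depths are uncertain. All 10 epithelial markers (Epcam, Krt20, Muc2 and others) were measured, as colon tissue should have, with a summed level of 4450 to 4920 FPKM in DSS and 4460 to 5070 in DSS_ICB_Fp. In DSS_ICB the sum was 534 to 4950, and the 534 belonged to DSS_ICB 3. This library stood apart from the others, with a median rank correlation of 0.725 with the rest, a smooth muscle marker sum of 11700 FPKM and 33.2% of its signal in mitochondrially encoded genes. DSS_ICB 5 stood apart less, at 0.864, and the other 13 libraries lay between 0.922 and 0.950. Changes given below with a standard error that were over 1.5 times smaller without these 2 libraries are also given without them. Medians of the marker lists and of the other gene lists are given with all 15 libraries only. The labels name each mouse but no culture, litter or batch, so p-values measure the spread between these samples only.

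Member levels ran from a mean of 0.423 FPKM for Mx2 to 228 FPKM for Ifitm3 over the 15 mice, with a median of 5.39. Of the 35 members, 25 had a mean under 10 FPKM. The 6 above 20 FPKM were Oas1a, the membrane tether Bst2, the small mitochondrial protein gene Ifi27l2a, and the genes of the interferon-induced transmembrane proteins Ifitm1, Ifitm2 and Ifitm3. These last 3 encode proteins that sit in cell membranes and hinder virus entry, and they are also expressed in many cells without interferon. Beside the levels, the map of all members by mouse shows 2 unlike blocks, one set apart in DSS 3 and one in DSS_ICB 3.

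**Figure D1:**
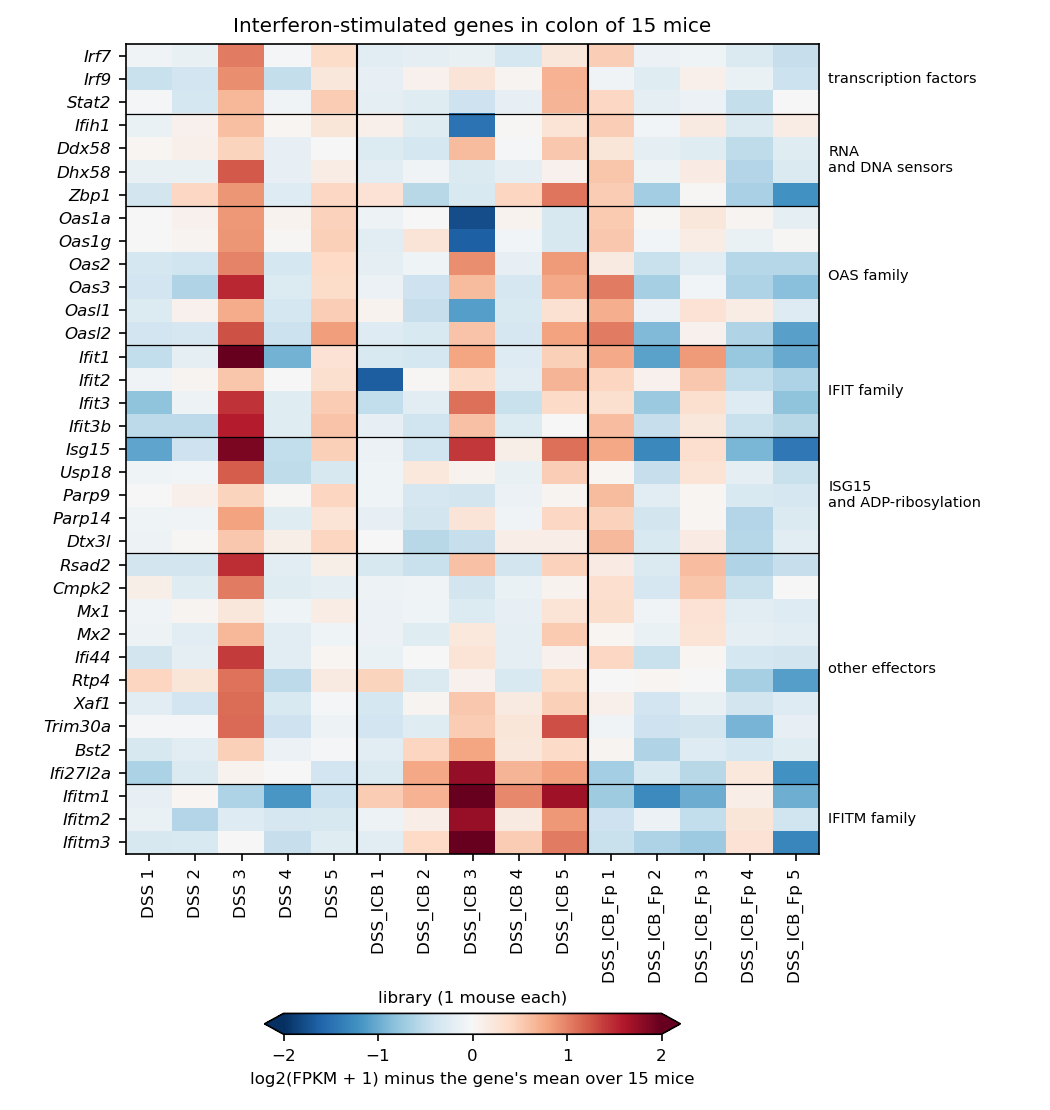
Each row is 1 member, ordered by role, and each column 1 mouse; colour is log2(FPKM + 1) minus the gene's mean over the 15 mice, red above and blue below. The antiviral genes are darkest in DSS 3, the Ifitm genes and Ifi27l2a in DSS_ICB 3 and 5, and Ifih1, Oas1a and Oas1g are dark blue in DSS_ICB 3.

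Between groups, few members differed beyond the spread between mice. The test was limma on log2(FPKM + 1), fitted to all 15 libraries and all 14385 genes, with Benjamini-Hochberg adjustment over all of them and a threshold of 0.05. In DSS_ICB against DSS, 0 of the 33 tested members passed, beside 3 genes of all (0.0209%), and 6 members had an unadjusted limma p under 0.05, 4 higher and 2 lower (11.3% of all genes, 7.08% higher and 4.22% lower). In DSS_ICB_Fp against DSS_ICB, 1 of 33 fell, Ifitm1, and 0 rose, beside 0.125% of all genes lower, 0.00695% higher and 0.132% in either direction. Unadjusted, 5 members were under 0.05, all lower (21.8% of all genes, 12.4% lower and 9.34% higher). In DSS_ICB_Fp against DSS, 0 members passed, as did 0 genes of all (0%), and 1 member, Rtp4, was under 0.05 unadjusted and lower (1.41% of all genes, 0.820% lower). The median log2 change of the 33 was -0.11 in DSS_ICB against DSS, -0.28 in DSS_ICB_Fp against DSS_ICB and -0.25 in DSS_ICB_Fp against DSS, beside 0.02, -0.04 and -0.01 over all tested genes.

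Those medians rested on few mice. In DSS_ICB against DSS, 12 members lay above 0 and 21 below (52.8% and 47.2% of all genes). Without DSS 3, 21 lay above and 12 below, and the median was 0.14. In DSS_ICB_Fp against DSS_ICB, 11 of 33 lay above 0 and 22 below (44.5% and 55.5% of all genes). Without DSS_ICB 3 and DSS_ICB 5, 13 lay below and 20 above, with a median of 0.06. In DSS_ICB_Fp against DSS, 31 of 33 lay below 0 and 2 above, Oasl1 and Ifitm2 (52.9% and 47.1% of all genes). Without DSS 3, 21 of 33 lay below 0 and the median was -0.09. In the same comparison all 7 tested neutrophil markers lay below 0 (median -0.81), as did 4 of 4 B cell markers (-1.5) and 8 of 10 macrophage and monocyte markers (-0.37). So did 4 of 4 tested T cell markers (-0.255), 5 of 5 fibroblast markers (-0.235) and 5 of 5 smooth muscle markers (-0.121). Of the endothelial markers 3 of 5 lay above 0 (median 0.04), and of the epithelial markers 5 of 10 (0.01). Of the 3 tested plasmacytoid dendritic cell markers 1 lay above 0 and 2 below (median -0.03). None of these markers passed, and their part in the members' levels was not tested. In 2 of the 3 comparisons, then, the side of 0 that held most members depended on 1 or 2 mice. Shares of all genes are not given without these mice, so whether all genes shifted alike is not known. In bulk tissue, fewer cells of a type and less RNA per cell cannot be told apart.

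**Figure D2:**
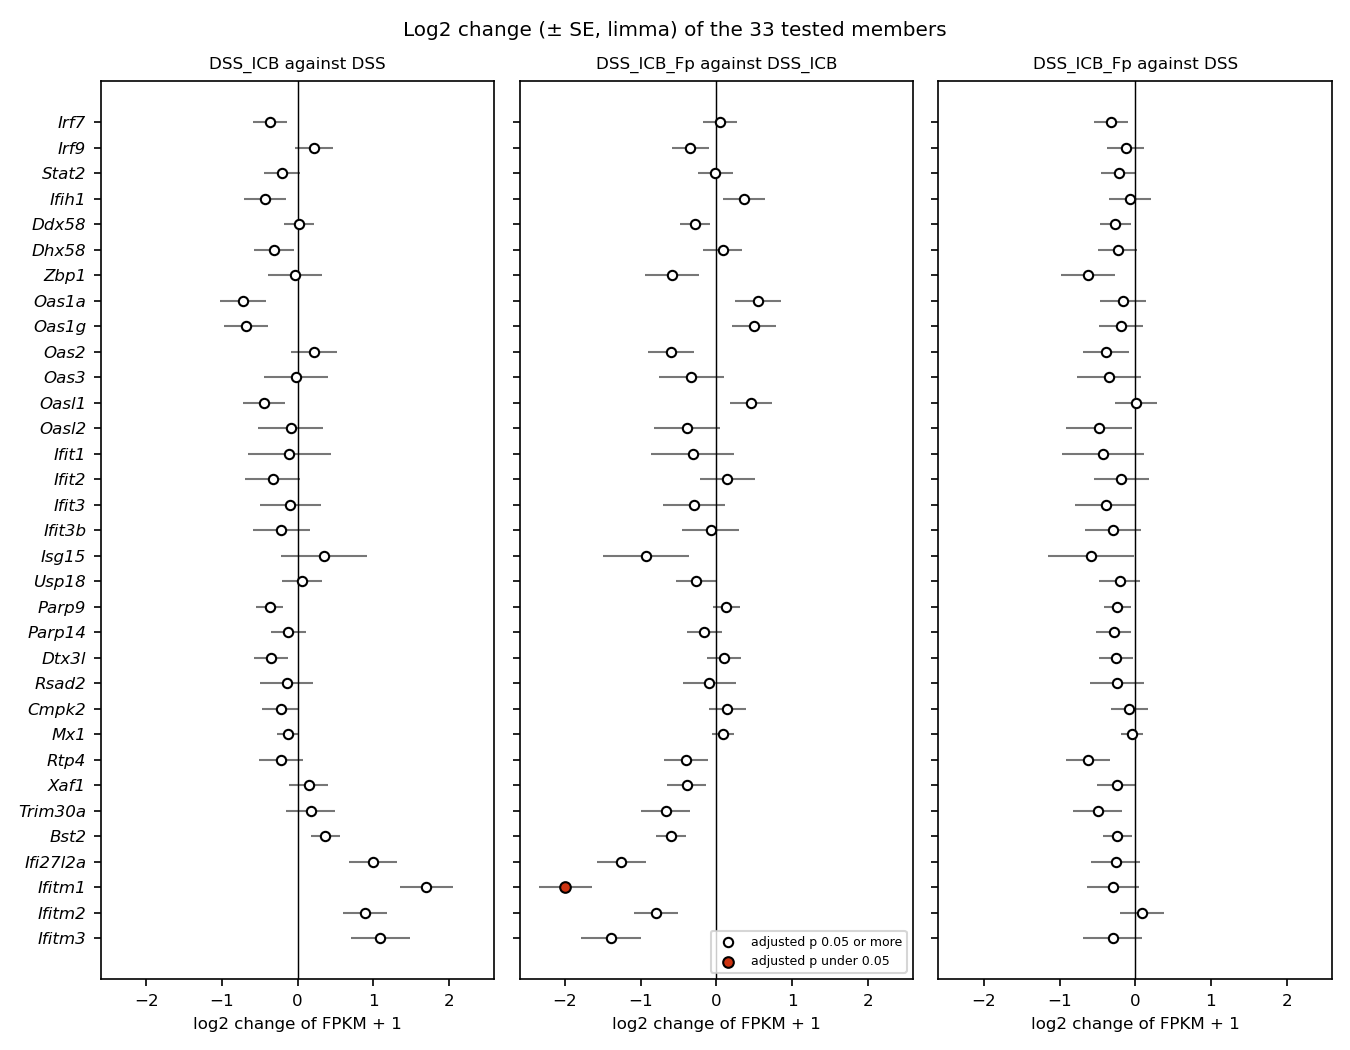
Points are the log2 changes of FPKM + 1 of the 33 tested members in each comparison, with bars of 1 standard error from limma; the filled point has an adjusted p under 0.05. It is Ifitm1 in DSS_ICB_Fp against DSS_ICB, at -2.0, and most other points lie within 1 of 0.

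Ifitm1, which encodes a membrane protein found on leukocytes and other cells, was the only member of the 33 to pass in any comparison. Ifitm1 (ENSMUSG00000025491, chr7:140967221-140969825 on mm10, plus strand) measured 34.6, 39.9, 25.1, 16.8 and 28.6 FPKM in the DSS mice, 55.9, 63.8, 196, 76.6 and 129 FPKM in the DSS_ICB mice, and 23.4, 15.5, 19.2, 43 and 19.2 FPKM in the DSS_ICB_Fp mice. Every DSS_ICB mouse was above every mouse of the other 2 groups. Ifitm1 fell by 2.0 ± 0.35 on the log2 scale (SE) in DSS_ICB_Fp against DSS_ICB (limma adjusted p = 0.034), from a mean of 104 ± 58.4 to 24.1 ± 10.9 FPKM (SD, n = 5 each). Of all tested genes, 2.46% were lower with no overlap in this comparison. In DSS_ICB against DSS its log2 change was 1.70 ± 0.35 and did not pass (limma adjusted p = 0.247), although the groups do not overlap; 1.21% of all genes were higher without overlap there. In DSS_ICB_Fp against DSS the ranges overlap, and the change was -0.29 ± 0.35 (limma adjusted p = 1.0). Without DSS_ICB 3 and DSS_ICB 5, the lower level in DSS_ICB_Fp had a log2 change of -1.49 and no longer passed (limma adjusted p = 0.0938). It also missed the threshold when DSS_ICB 3 or DSS_ICB 5 was left out alone (limma adjusted p = 0.0574 and 0.115), and passed in 9 of the 25 other settings tried.

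Ifitm3, which lies on the same chromosome (chr7:141009586-141010770) and is the most abundant member, had 145, 147, 183, 133 and 153 FPKM in the DSS mice, 156, 241, 972, 259 and 376 FPKM in the DSS_ICB mice, and 134, 118, 109, 222 and 72.9 FPKM in the DSS_ICB_Fp mice. DSS_ICB 3 was far above every other mouse, DSS_ICB 5 was next, and the lowest DSS_ICB mouse lay inside the DSS range. Its log2 change was 1.09 ± 0.39 in DSS_ICB against DSS (limma adjusted p = 0.427) and -1.39 ± 0.39 in DSS_ICB_Fp against DSS_ICB (limma adjusted p = 0.0943). These changes were 0.50 and -0.79 without DSS_ICB 3 and DSS_ICB 5. Ifitm2 (chr7:140954837-140955987) had 163, 118, 149.6, 140.4 and 143 FPKM in the DSS mice, 166, 195, 599.7, 201 and 326 FPKM in the DSS_ICB mice, and 133, 165, 127, 212 and 135 FPKM in the DSS_ICB_Fp mice. All DSS_ICB mice were above all DSS mice, the lowest by little, while DSS_ICB_Fp 4 reached into their range. Neither comparison passed, with log2 changes of 0.89 ± 0.29 (limma adjusted p = 0.418) and -0.80 ± 0.29 (limma adjusted p = 0.146), which were 0.39 and -0.30 without DSS_ICB 3 and DSS_ICB 5. Of the 50-base stretches in the Ifitm2 transcripts, 48.5% also occur in another gene, largely the annotated Gm45717, so its reads could be split and its level is uncertain.

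**Figure D3:**
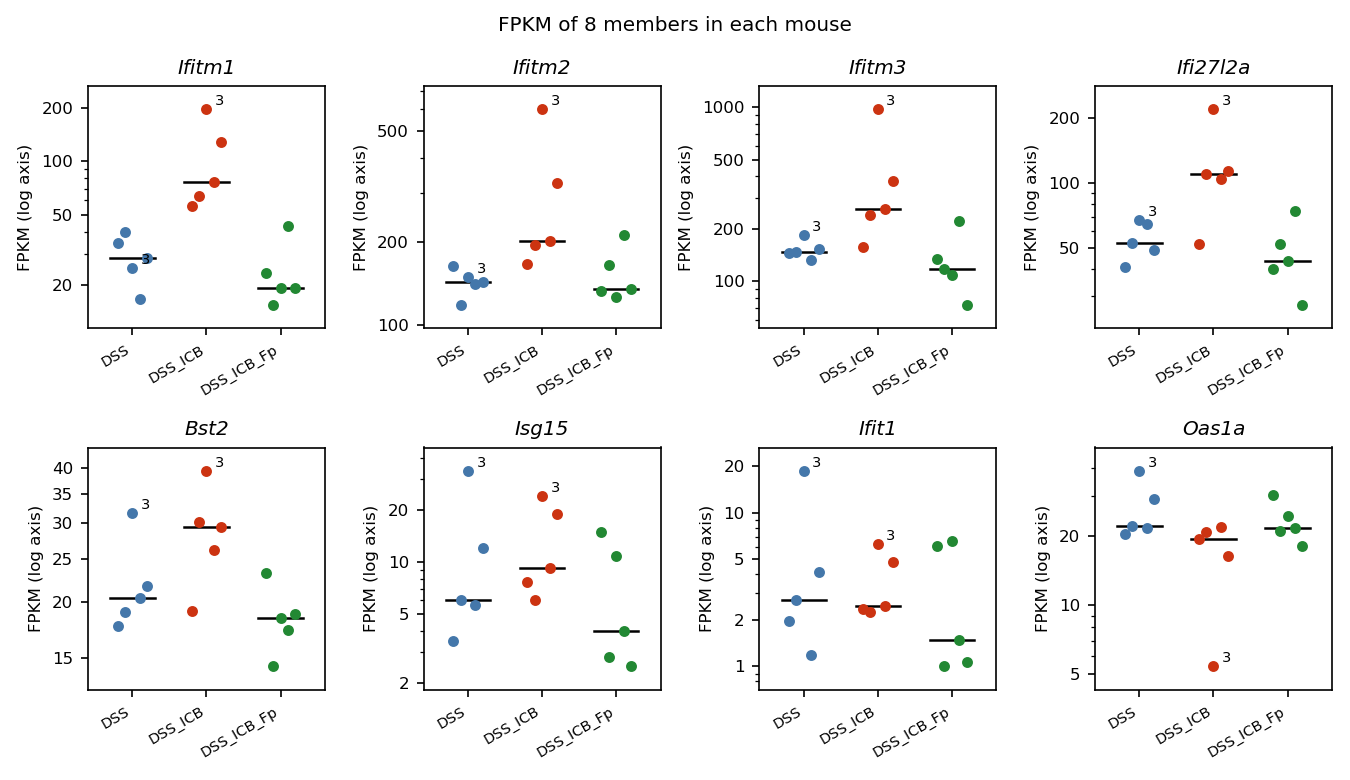
Each point is the FPKM of 1 mouse on a log axis, for 8 members in the 3 groups; bars are group medians and the label 3 marks mouse 3 of DSS and of DSS_ICB. Ifitm1 in the DSS_ICB mice (55.9 to 196 FPKM) lies above both other groups, while Isg15, Ifit1 and Oas1a overlap between groups.

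Ifi27l2a had 41, 52.6, 67.4, 64.9 and 49 FPKM in the DSS mice, 52.5, 111, 220.0, 104 and 114 FPKM in the DSS_ICB mice, and 39.9, 51.9, 43.7, 74.5 and 27.2 FPKM in the DSS_ICB_Fp mice. All DSS_ICB mice but DSS_ICB 1 were above every mouse of the other groups. Its log2 change was 1.0 ± 0.32 in DSS_ICB against DSS (limma adjusted p = 0.418) and -1.26 ± 0.32 in DSS_ICB_Fp against DSS_ICB (limma adjusted p = 0.0851). Leaving out DSS_ICB 3 and DSS_ICB 5 gave 0.64 and -0.90. Bst2, which holds budding virus at the cell surface, had 17.7, 19, 31.6, 20.4 and 21.8 FPKM in the DSS mice, 19.1, 30.3, 39.3, 26.1 and 29.5 FPKM in the DSS_ICB mice, and 23.2, 14.3, 18.4, 17.3 and 18.8 FPKM in the DSS_ICB_Fp mice. The DSS_ICB mice tended to the top, but DSS 3 exceeded all of them except DSS_ICB 3. Bst2 differed less, by 0.36 ± 0.19 (limma adjusted p = 0.462) and -0.60 ± 0.19 (limma adjusted p = 0.119), or 0.18 and -0.42 without the same 2 mice.

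The mean levels of the Ifitm genes and of Ifi27l2a were highest in DSS_ICB, and so was the summed level of neutrophil markers. Of 10 neutrophil markers measured, 7 could be tested, and 5 of the 7 fell in DSS_ICB_Fp against DSS_ICB: S100a8, S100a9, Retnlg, Clec4d and Csf3r. The others, Cxcr2 and Mmp9, had limma adjusted p of 0.0594 and 0.0705. The summed level of the 10 was 21.6 to 58.4 FPKM in DSS, 128 to 2020 in DSS_ICB and 2.14 to 33.4 in DSS_ICB_Fp. The granule genes Ngp, Ltf and Camp were too low to test and overlapped between all 3 groups: Ngp was listed at 0 in every mouse but DSS_ICB 3 and DSS_ICB 5 (0.567 and 0.163 FPKM), and Ltf had its highest level in DSS_ICB 5 (1.44 FPKM) but only 0.164 FPKM in DSS_ICB 3. S100a8 ranged from 35.3 to 593 FPKM in DSS_ICB. The highest sums, 2020 and 864 FPKM, were those of DSS_ICB 3 and DSS_ICB 5, the mice with the highest Ifitm1, Ifitm2 and Ifitm3. With group means subtracted, the log2 levels of Ifitm1, Ifitm3, Ifitm2, Ifi27l2a and Bst2 had Pearson correlations of 0.83, 0.80, 0.79, 0.61 and 0.20 with the log2 sum over the 15 mice. Without DSS_ICB 3 and DSS_ICB 5 these were 0.65, 0.54, 0.44, 0.31 and -0.32. Within DSS_ICB_Fp, mouse 4 had both the highest sum, 33.4 FPKM, and the highest Ifitm1, 43.0 FPKM. All 5 endothelial markers were also lower in DSS_ICB_Fp than in DSS_ICB with none passing (sums of 25.8 to 40.8 against 42.3 to 102 FPKM), as were the 5 fibroblast markers (139 to 284 against 217 to 430). Their median log2 changes were -0.82 and -0.83, and 5 endothelial and 4 fibroblast markers had an unadjusted limma p under 0.05. All 5 smooth muscle markers lay below 0 too (median -0.32), with 0 under 0.05 unadjusted. The 4 tested B cell markers lay below 0 as well, with a median log2 change of -2.03 (summed levels of all 4, 1.82 to 64.4 against 12.1 to 129 FPKM), and 3 of the 4 had an unadjusted limma p under 0.05. The 4 tested T cell markers (median -0.49) and 9 of 10 macrophage and monocyte markers (median -0.44) also lay below 0. By contrast, 9 of 10 epithelial markers lay above 0 (median 0.76). The epithelial sum was 4460 to 5070 FPKM in DSS_ICB_Fp, 534 in DSS_ICB 3 and 3591 to 4950 in the other DSS_ICB mice. The epithelial median is not given without DSS_ICB 3. Of 6 plasmacytoid dendritic cell markers, a list that includes Bst2, 3 could be tested, and 1 lay above 0 and 2 below (median -0.14). The sum of the 6 was 219 to 594 FPKM in DSS_ICB_Fp against 48.6 to 245 in DSS_ICB. None of these B cell, T cell, macrophage, epithelial and plasmacytoid dendritic cell markers passed. The part of these cells in the levels of the members was not tested.

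The classical antiviral genes did not separate the groups in this way. Isg15 (ENSMUSG00000035692, chr4:156199424-156200818), a ubiquitin-like protein that is attached to others, had 3.48, 6.01, 33.5, 5.62 and 12.1 FPKM in the DSS mice, 7.64, 6.06, 24, 9.17 and 19 FPKM in the DSS_ICB mice, and 15, 2.8, 10.8, 3.97 and 2.49 FPKM in the DSS_ICB_Fp mice. The 3 groups overlap widely, and the highest level of all belonged to a mouse without checkpoint blockade, DSS 3. Ifit1, which binds foreign RNA caps and blocks translation, had 1.96, 2.69, 18.7, 1.18 and 4.09 FPKM in the DSS mice, 2.38, 2.27, 6.26, 2.49 and 4.82 FPKM in the DSS_ICB mice, and 6.07, 1, 6.51, 1.48 and 1.08 FPKM in the DSS_ICB_Fp mice. Again DSS 3 was far above the rest, with DSS_ICB_Fp 1 and 3 and DSS_ICB 3 next. Rsad2 (viperin, which makes a chain terminator for viral polymerases) had 1.01, 1.01, 6.21, 1.25 and 1.8 FPKM in the DSS mice, 1.06, 0.914, 2.89, 1 and 2.58 FPKM in the DSS_ICB mice, and 1.91, 1.13, 2.99, 0.717 and 0.874 FPKM in the DSS_ICB_Fp mice. Its order of mice was similar, with DSS 3 on top and DSS_ICB_Fp 3 and DSS_ICB 3 after it.

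DSS 3 stood above the other 4 DSS mice for 33 of the 35 members, all but Ifitm1 and Ifitm2. Over all tested genes this was so for 23.8%. It had at least 2 times the mean of those 4 for 18 members, beside 3.16% of all tested genes. The ratio ran from 0.836 to 8.56, with a median of 2.15, and was 8.56 for Ifi44, 7.54 for Ifit1, 6.32 for Oas3 and 4.94 for Isg15. Of the 33 tested members, 20 were highest of all 15 mice in DSS 3, which was highest for 1.90% of all tested genes. Its neutrophil markers summed to 21.6 FPKM, the lowest of the DSS mice, and its epithelial markers to 4591 FPKM, within their range. Its smooth muscle markers summed to 3538 FPKM and its endothelial markers to 49.4 FPKM, both the highest of the DSS mice (the others 1222 to 2622 and 22.1 to 37.3), and the part of tissue makeup was not tested. At the other end, DSS_ICB_Fp 4 and DSS_ICB_Fp 5 each held the lowest level of 9 tested members, beside 6.48% and 5.36% of all tested genes. DSS_ICB 3 was lowest for 6 tested members and for 36.6% of all tested genes. These mice were noticed in the data, so the counts describe them and no test was made.

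**Figure D4:**
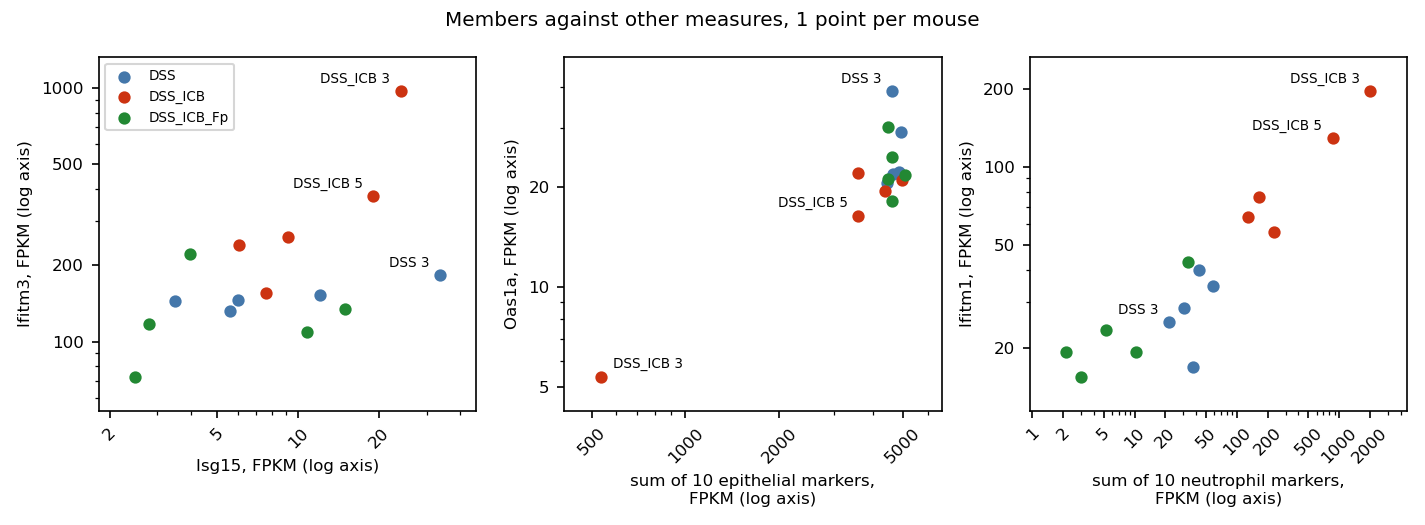
Each point is 1 mouse, on log axes in FPKM: Ifitm3 against Isg15, Oas1a against the sum of 10 epithelial markers, and Ifitm1 against the sum of 10 neutrophil markers, coloured by group. DSS 3 is highest in Isg15 but not in Ifitm3, Oas1a is low only in the mouse with the low epithelial sum, and the DSS_ICB mice hold the highest Ifitm1 and neutrophil sums.

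The members therefore did not vary as 1 block. Over the 15 mice, with each group's mean subtracted, the log2 levels of 13 of the 34 other members had a Pearson correlation of at least 0.8 with Isg15: Ifit1, Ifit3, Ifit3b, Oas2, Oas3, Oasl2, Rsad2, Mx2, Irf7, Irf9, Ifi44, Xaf1 and Parp14. Without DSS 3 and DSS_ICB 3, the mice farthest from the median of Isg15, 15 members did, but not all the same ones. Mx2, Irf9 and Xaf1 then lay below 0.8 (0.72, 0.77 and 0.71), and Oasl1, Mx1, Zbp1, Parp9 and Dtx3l reached it. With Ifitm3 as the reference over all 15 mice, 3 members reached 0.8: Ifitm1, Ifitm2 and Ifi27l2a. Their correlations with Ifitm3 were 0.82, 0.91 and 0.89, and 0.63, 0.71 and 0.84 without DSS_ICB 3 and DSS_ICB 5. Isg15 and Ifitm3 had a correlation of 0.56, and 0.48 with group means subtracted. With group means subtracted it was 0.28 without DSS_ICB 3 and DSS_ICB 5, and 0.33 without DSS 3 and DSS_ICB 3. These points share library depth and tissue makeup. The spread was also placed differently: the median SD of the members' log2 levels was 0.496 in DSS, 0.530 in DSS_ICB and 0.410 in DSS_ICB_Fp, beside 0.220, 0.372 and 0.226 over all tested genes. DSS was the most variable group for 15 of the 33 members and for 14.7% of all genes, and DSS_ICB for 13 members and 68.5% of all genes. The spread in DSS is not given without DSS 3, the highest DSS mouse for 33 of the 35 members.

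The IFIT genes lie side by side on chromosome 19. Ifit2 ranged over 2.68 to 4.63 FPKM in DSS, 0.221 to 5.14 FPKM in DSS_ICB and 1.5 to 4.56 FPKM in DSS_ICB_Fp, its lowest value being DSS_ICB 1. Ifit3 ranged over 2.57 to 16 FPKM in DSS, 3.45 to 12.4 FPKM in DSS_ICB and 2.59 to 6.8 FPKM in DSS_ICB_Fp. Ifit3b ranged over 1.36 to 9.18 FPKM in DSS, 1.6 to 4.14 FPKM in DSS_ICB and 1.31 to 4.23 FPKM in DSS_ICB_Fp. Of the 50-base stretches, 51.2% in Ifit3 and 45% in Ifit3b are shared, chiefly with each other, so that their split is uncertain. None of the 4 family members passed in any comparison, with log2 changes of -0.33 to -0.09 in DSS_ICB against DSS and -0.32 to 0.14 in DSS_ICB_Fp against DSS_ICB.

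The OAS genes, a family that includes enzymes making short oligoadenylates that activate RNase L, split into unlike patterns. Oas2 ranged over 0.768 to 3.64 FPKM in DSS, 1.08 to 3.46 FPKM in DSS_ICB and 0.569 to 1.65 FPKM in DSS_ICB_Fp. Oas3 ranged over 0.28 to 4.49 FPKM in DSS, 0.447 to 2.27 FPKM in DSS_ICB and 0.0864 to 2.96 FPKM in DSS_ICB_Fp. Both genes were highest in DSS 3. Oas1a (chr5:120896256-120907521) was several times more abundant, with 20.6, 22.1, 38.7, 21.9 and 29.1 FPKM in the DSS mice, 19.4, 20.9, 5.39, 22 and 16.4 FPKM in the DSS_ICB mice, and 30.3, 21.1, 24.5, 21.8 and 18.2 FPKM in the DSS_ICB_Fp mice. Here DSS_ICB 3 was lowest of all mice and DSS 3 highest, and the 3 groups overlap. Its log2 change was -0.72 ± 0.30 in DSS_ICB against DSS (limma adjusted p = 0.434) and 0.55 ± 0.30 in DSS_ICB_Fp against DSS_ICB (limma adjusted p = 0.301). They were -0.30 and 0.13 without DSS_ICB 3 and DSS_ICB 5. Oas1g shared the pattern, at 9.59 to 18.5 FPKM in DSS, 2.41 to 11.7 FPKM in DSS_ICB and 8.63 to 14.3 FPKM in DSS_ICB_Fp, with log2 changes of -0.68 ± 0.29 (limma adjusted p = 0.434) and 0.50 ± 0.29 (limma adjusted p = 0.331), or -0.30 and 0.11 without those 2 mice. Oas1a and Oas1g share 57.6% and 45.7% of their 50-base stretches with other genes, mostly each other, and are uncertain as separate genes. DSS_ICB 3 also had the lowest level of Oasl1, with ranges of 4.72 to 11.2 FPKM in DSS, 2.39 to 8.06 FPKM in DSS_ICB and 5.11 to 11.1 FPKM in DSS_ICB_Fp, whereas Oasl2 was not low in it (3.19 to 12.6 FPKM in DSS, 3.49 to 8.88 FPKM in DSS_ICB and 1.66 to 10.6 FPKM in DSS_ICB_Fp). The epithelial marker sum of that mouse was 534 FPKM, and its part in these low levels was not tested.

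Among the sensors of foreign nucleic acid, Ifih1 (MDA5, for long double-stranded RNA) had 7.39, 8.79, 12.9, 8.4 and 9.86 FPKM in the DSS mice, 8.84, 6.73, 2.29, 8.34 and 10.2 FPKM in the DSS_ICB mice, and 12, 7.89, 9.43, 6.54 and 9.24 FPKM in the DSS_ICB_Fp mice. It too was lowest in DSS_ICB 3, and the other mice of the 3 groups overlap. Ddx58 (RIG-I, for RNA ends) ranged over 2.75 to 4.74 FPKM in DSS, 2.28 to 5.48 FPKM in DSS_ICB and 1.96 to 3.97 FPKM in DSS_ICB_Fp. It was highest in DSS_ICB 3 and 5. Dhx58, which modulates the other 2, ranged over 2.21 to 7.5 FPKM in DSS, 1.97 to 2.85 FPKM in DSS_ICB and 1.42 to 4.33 FPKM in DSS_ICB_Fp, and was highest in DSS 3. Zbp1, a sensor that can trigger cell death, ranged over 3.91 to 10.6 FPKM in DSS, 3.32 to 12.2 FPKM in DSS_ICB and 1.71 to 7.99 FPKM in DSS_ICB_Fp. Zbp1 differed by -0.59 ± 0.36 in DSS_ICB_Fp against DSS_ICB (limma adjusted p = 0.341). None of the 4 sensors passed in any comparison, and all 4 had a log2 change below 0 in DSS_ICB_Fp against DSS, from -0.62 to -0.06.

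The transcription factors of the pathway did not pass in any comparison. Irf7, which amplifies interferon production, ranged over 5.55 to 13.9 FPKM in DSS, 4.69 to 7.52 FPKM in DSS_ICB and 4.3 to 9.22 FPKM in DSS_ICB_Fp. Irf9 ranged over 3.61 to 11.2 FPKM in DSS, 4.75 to 9.42 FPKM in DSS_ICB and 3.75 to 5.92 FPKM in DSS_ICB_Fp. Stat2 ranged over 3.09 to 7.26 FPKM in DSS, 2.9 to 7.36 FPKM in DSS_ICB and 2.75 to 5.97 FPKM in DSS_ICB_Fp. All 3 are part of the machinery as well as its targets. Their log2 changes lay between -0.36 and 0.22 in DSS_ICB against DSS and between -0.34 and 0.04 in DSS_ICB_Fp against DSS_ICB, with a smallest limma adjusted p of 0.429.

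Around Isg15, the protease Usp18, which removes ISG15 and restrains the receptor, ranged over 0.466 to 3.78 FPKM in DSS, 0.877 to 1.91 FPKM in DSS_ICB and 0.508 to 1.51 FPKM in DSS_ICB_Fp. Parp9 and its partner Dtx3l lie head to head on chromosome 16 and act together in ubiquitin and ADP-ribose transfer. Parp9 ranged over 12.2 to 16.9 FPKM in DSS, 9.26 to 12.7 FPKM in DSS_ICB and 9.47 to 19.4 FPKM in DSS_ICB_Fp. Dtx3l ranged over 11.7 to 18.7 FPKM in DSS, 8.22 to 13.9 FPKM in DSS_ICB and 8.18 to 20.2 FPKM in DSS_ICB_Fp. Both were highest in DSS_ICB_Fp 1. The related Parp14 ranged over 5.85 to 13.2 FPKM in DSS, 5.26 to 9.75 FPKM in DSS_ICB and 4.38 to 10.2 FPKM in DSS_ICB_Fp. In DSS_ICB against DSS, Parp9 differed by -0.37 ± 0.18 (limma adjusted p = 0.450), Irf7 by -0.36 ± 0.22 (limma adjusted p = 0.508) and Dtx3l by -0.35 ± 0.22 (limma adjusted p = 0.513). The 5 genes of this role had log2 changes of -0.37 to 0.35 in DSS_ICB against DSS and of -0.93 to 0.13 in DSS_ICB_Fp against DSS_ICB, and none passed.

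The remaining effectors were low. The GTPase gene Mx1 ranged over 0.894 to 1.36 FPKM in DSS, 0.672 to 1.44 FPKM in DSS_ICB and 0.678 to 1.56 FPKM in DSS_ICB_Fp. Its relative Mx2 ranged over 0.207 to 1.21 FPKM in DSS, 0.182 to 1.01 FPKM in DSS_ICB and 0.192 to 0.688 FPKM in DSS_ICB_Fp. These are the lowest levels of the list apart from Ifi44. Ifi44 ranged over 0.181 to 3.03 FPKM in DSS, 0.343 to 0.841 FPKM in DSS_ICB and 0.127 to 1.04 FPKM in DSS_ICB_Fp. Cmpk2, a nucleotide kinase that neighbours Rsad2, ranged over 1.76 to 5.69 FPKM in DSS, 1.54 to 2.41 FPKM in DSS_ICB and 1.39 to 3.78 FPKM in DSS_ICB_Fp. In both genes DSS 3 stood out from a low level elsewhere. The receptor chaperone gene Rtp4 ranged over 1.86 to 7.78 FPKM in DSS, 2.32 to 4.58 FPKM in DSS_ICB and 0.919 to 3.23 FPKM in DSS_ICB_Fp. Xaf1, linked to cell death, ranged over 1.29 to 5.51 FPKM in DSS, 1.35 to 3.33 FPKM in DSS_ICB and 1.29 to 2.22 FPKM in DSS_ICB_Fp. All of these but Mx1 had their highest level in DSS 3. Trim30a ranged over 3.2 to 11.3 FPKM in DSS, 3.29 to 12.8 FPKM in DSS_ICB and 1.94 to 4.37 FPKM in DSS_ICB_Fp, highest in DSS_ICB 5, and differed by -0.67 ± 0.32 in DSS_ICB_Fp against DSS_ICB (limma adjusted p = 0.239). Oas2 differed by -0.60 ± 0.30 there (limma adjusted p = 0.263). These changes of Trim30a and Oas2 were -0.26 and -0.19 without DSS_ICB 3 and DSS_ICB 5.

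In DSS_ICB_Fp against DSS, where no gene passed, the 10 members with the smallest p all lay lower. The smallest was that of Rtp4, at -0.63 ± 0.29 on the log2 scale, with Zbp1 at -0.62 ± 0.36 and Trim30a at -0.50 ± 0.32. They were followed by Irf7 (-0.32 ± 0.22), Parp9 (-0.24 ± 0.18), Ddx58 (-0.27 ± 0.20), Oas2 (-0.39 ± 0.30), Parp14 (-0.28 ± 0.23), Bst2 (-0.24 ± 0.19) and Dtx3l (-0.25 ± 0.22). The limma adjusted p was 1.0 for each. For each of the 10 genes the ranges of both groups overlap; of all tested genes, 0.195% were lower without overlap.

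The steps before these genes were measured as well. Of 21 interferon ligand genes, type I, II and III, 17 were listed at 0 in every mouse, and none was high enough to test. Ifna13, Ifnb1, Ifnz and Ifng were above 0 in some mice, and the ligands together reached at most 0.229 FPKM, in DSS_ICB 5. Ligand differences were not detectable at these levels. All 6 receptor genes were tested and 0 passed in any comparison. Ifnar2, the binding chain of the type I receptor, had 3.0 to 4.56 FPKM in DSS, 4.41 to 11.8 in DSS_ICB and 2.87 to 3.89 in DSS_ICB_Fp. It differed by 0.78 ± 0.21 in DSS_ICB against DSS (limma adjusted p = 0.381) and by -0.94 ± 0.21 in DSS_ICB_Fp against DSS_ICB (limma adjusted p = 0.0712). Ifngr2, a chain of the interferon gamma receptor, differed by -0.33 ± 0.19 (limma adjusted p = 0.488) and 0.42 ± 0.19 (limma adjusted p = 0.224). Without DSS_ICB 3 and DSS_ICB 5 the changes were 0.40 and -0.56 for Ifnar2 and -0.06 and 0.15 for Ifngr2.

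Of 8 signalling genes, 14 tested sensors and adaptors, and 9 feedback genes, 0 passed in any comparison. Irf1 lay lower in DSS_ICB than in DSS (-0.43 ± 0.16, limma adjusted p = 0.430), and Irf3 differed by 0.15 ± 0.11 (limma adjusted p = 0.554). The adaptor gene Tmem173 (STING) had a log2 change of 0.82 ± 0.24 in DSS_ICB against DSS (limma adjusted p = 0.381) and of -0.97 ± 0.24 in DSS_ICB_Fp against DSS_ICB (limma adjusted p = 0.0802). Tlr3, the endosomal sensor of double-stranded RNA, differed by -0.56 ± 0.16 in the first of these (limma adjusted p = 0.381). In DSS_ICB_Fp against DSS_ICB, the factor Irf5 differed by -0.83 ± 0.23 (limma adjusted p = 0.0926), Irf1 by 0.38 ± 0.16 (limma adjusted p = 0.194) and the Tlr3 adaptor Ticam1 by 0.65 ± 0.18 (limma adjusted p = 0.0921). Socs3, an inhibitor of cytokine receptors, had 3.54 to 8.19 FPKM in DSS, 8.84 to 62.1 in DSS_ICB and 2.12 to 17.6 in DSS_ICB_Fp. Its log2 change was 1.72 ± 0.54 (limma adjusted p = 0.418) and then -1.99 ± 0.54 (limma adjusted p = 0.0906). Socs1 differed by 0.40 ± 0.17 in DSS_ICB against DSS (limma adjusted p = 0.434), and the phosphatase gene Ptpn2 by -0.30 ± 0.10 in DSS_ICB_Fp against DSS_ICB (limma adjusted p = 0.135). Leaving out DSS_ICB 3 and DSS_ICB 5 gave 0.45 and -0.61 for Tmem173, 0.90 and -1.17 for Socs3, and 0.19 for Socs1 in DSS_ICB against DSS.

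A further list of 61 interferon-stimulated genes outside the 35 gave 60 measured and 57 tested, of which 0 passed in any comparison. In DSS_ICB_Fp against DSS_ICB, 41 of 57 lay below 0 (55.5% of all genes), with a median of -0.28. At an unadjusted limma p under 0.05, 14 were lower (12.4% of all genes) and 3 higher (9.34% of all genes). These 3, chosen after their values were seen, were Ifit1bl1 at 1.56, Ifit1bl2 at 0.77 and Tor3a at 0.39. Ifit1bl1 was lowest of all mice in DSS_ICB 3, at 3.35 FPKM. The counts, the median and these 3 changes are not given without DSS_ICB 3 and DSS_ICB 5, so their dependence on those mice is not known. Of the 57, the 2 with the smallest p were Ifitm6, a relative of Ifitm1 expressed in myeloid cells (-1.59 ± 0.33, limma adjusted p = 0.0615), and Slfn1 (-1.45 ± 0.36, limma adjusted p = 0.0844). In DSS_ICB against DSS, Ifitm6 differed by 1.10 ± 0.33 (limma adjusted p = 0.412) and Ifit1bl2 by -0.78 ± 0.22 (limma adjusted p = 0.381). Without DSS_ICB 3 and DSS_ICB 5 the changes of Ifitm6 were -1.02 and 0.53, and that of Slfn1 was -0.72. In DSS_ICB_Fp against DSS, 51 of 57 lay below 0 (52.9% of all genes), with a median of -0.24. This count and median are not given without DSS 3. The smallest p were those of Ms4a4c (-0.89 ± 0.34) and Ifi203 (-0.53 ± 0.25), each with a limma adjusted p of 1.0. In that comparison Irf5 (-0.54 ± 0.23) and Ptpn6 (-0.51 ± 0.31) lay lower, as did Traf3 (-0.37 ± 0.22), Tlr3 (-0.27 ± 0.16), Ifnar2 (-0.16 ± 0.21) and Ptpn2 (-0.10 ± 0.10). Ifngr2 (0.09 ± 0.19) and Irf3 (0.14 ± 0.11) lay above 0, and the limma adjusted p was 1.0 for all 8.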

How the data were processed

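Colon RNA of 15 mice was measured by RNA-seq, and the deposited values are FPKM per gene, 1 file per mouse. Per the submitters' processing notes, FastQC, STAR 2.5, Cuffnorm and DESeq were used with build mm10; their settings, and any scaling between libraries, are not given in the sources used here. Of 55335 gene IDs, 55154 matched GENCODE M21. Low values fell on whole-read steps in only 34.0% to 40.1% of cases (tolerance 0.03 on the log2 scale, 19530 genes with 1 transcript), so reads were not recovered and no count model was used. Genes with at least 1 FPKM in at least 5 libraries (14385) were fitted on log2(FPKM + 1) with limma 3.58.1 in R 4.3.3 (trend and robust), with 1 mean per group, 2-sided tests and Benjamini-Hochberg adjustment over all genes. A fold change on this scale understates the change of low genes. The fit was tested on simulated data. No libraries were identical.

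The 35 genes, the pathway and marker lists and the rules were chosen with earlier results of these data known. All 35 members are named with their levels; changes are given for called members and for the 10 with the smallest p in each comparison, and from the other pathway lists for called genes or else the 2 with the smallest p. Alternatives covered scaling, pseudocount, filter, libraries fitted, weights and left-out mice. Sequences are from RefSeq's promoter table; shared 50-base stretches were counted over GENCODE M21 transcripts.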

Additional observations from a re-analysis of the deposited data

Results flagged for a closer look

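Among the 105 sets of 5 mice examined (35 members in 3 groups), 10 had a mouse far from the other 4 by Dixon's criterion (a critical value of 0.71), which chance alone passes in about 1 of 20 independent sets. These sets are not independent, since many members vary together. In 8 of the 10 the mouse was DSS 3, above the other DSS mice, so these 8 concern 1 mouse. Its level was 6.21 FPKM for Rsad2 (next highest DSS mouse 1.80), 1.21 for Mx2 (0.311), 3.78 for Usp18 (0.991) and 3.03 for Ifi44 (0.573). It was 7.50 FPKM for Dhx58 (3.01), 5.51 for Xaf1 (1.91), 5.69 for Cmpk2 (2.54) and 11.4 for Trim30a (4.5). In DSS_ICB, mouse 3 was far below the others for Oas1a, at 5.39 FPKM with the next at 16.4. Mouse 5 was far above them for Stat2, at 7.36 FPKM with the next at 3.69.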

How the results depend on the processing

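In DSS_ICB against DSS and in DSS_ICB_Fp against DSS, 0 members passed in each of the 25 alternatives. The 1 call in DSS_ICB_Fp against DSS_ICB, Ifitm1, was less stable: 0 members passed with median-of-ratios scaling (Ifitm1 limma adjusted p = 0.0801), upper-quartile scaling (0.0786), a pseudocount of 10 FPKM (0.0731), no filter on low values (0.099), only the 2 compared groups in the fit (0.216), or without DSS_ICB 3 and DSS_ICB 5 (0.0938), and 3 passed with array quality weights (Ifi27l2a, Ifitm1 and Ifitm3). Leaving out 1 mouse at a time gave 0 to 4 calls. There were 4 without DSS_ICB 1 (Bst2, Ifi27l2a, Ifitm1 and Ifitm3), 3 without DSS_ICB_Fp 4 (Ifi27l2a, Ifitm1 and Ifitm3), 1 without DSS 4, DSS_ICB 2 or DSS_ICB 4, and 0 without any other mouse. The log2 change of Ifitm1 stayed between -2.22 and -1.49, and its limma adjusted p between 0.00918 and 0.216; the cause was not tested. The median member changes lay between -0.30 and 0.14 in DSS_ICB against DSS and between -0.34 and -0.09 in DSS_ICB_Fp against DSS. In DSS_ICB_Fp against DSS_ICB they lay between -0.37 and 0.06 (0.04 with array quality weights). The ranges of DSS_ICB against DSS and of DSS_ICB_Fp against DSS_ICB thus cross 0. Each median moved from its main value by less than 0.379, the SD of the members' mean over mice within groups. That SD is not the error of a difference between groups. Outside the members, genes that missed the threshold in DSS_ICB_Fp against DSS_ICB passed in some alternatives: Ifnar2, Tmem173 and Ifitm6 in 4 each, Socs3 and Slfn1 in 3 each, Ticam1 in 2 and Irf5 in 1. No log2 change of a single gene followed through the alternatives reversed, unlike the median member changes that crossed 0. No paired analysis was possible because the labels carry no replicate numbers or pairing. Members under 1 FPKM, such as Mx2 and Ifi44, have low levels that limit the precision.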
